A study of Mus musculus with 24 samples.

Results

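The genes described here encode 9 surface receptors of mature B lymphocytes: Ms4a1, Cd79a, Cd79b, Cd22, Cr2, Fcer2a, Cxcr5, Tnfrsf13c and Fcmr. They were found by gene name among the non-control probes of the arrays, with Fcmr under its older name Faim3. This gave 12 of 55681 probes and 9 of 29532 features tested. Spleen RNA was measured in B10.BR mice at 0, 300, 500 and 900 cGy and in BALB.K mice at 0, 300, 400 and 800 cGy, 24 hours after total body irradiation of the whole mouse with X-rays. Mice at 0 cGy were resting and not irradiated. The series calls 900 cGy in B10.BR and 800 cGy in BALB.K myeloablative, meaning that the dose destroys the bone marrow. Each of the 8 groups had 3 one-colour Agilent arrays, and each array held RNA from the whole splenocytes of 3 mice pooled, so that the spread between arrays is that between pools. The array files place 8 arrays on each of 3 slides: slide 1 held B10.BR at 0 and 300 cGy and replicates 1 and 2 at 500 cGy, slide 2 held B10.BR replicate 3 at 500 cGy, B10.BR at 900 cGy, BALB.K at 0 cGy and replicate 1 at 300 cGy, and slide 3 held the other BALB.K arrays. No allele, transgene or other agent is named in the labels, and the age and sex of the mice are not given in the sources used here.

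A mature B cell recognises antigen with a surface immunoglobulin whose signal is carried by the paired chains CD79a and CD79b (genes Cd79a and Cd79b). The signal is raised by a coreceptor that contains complement receptor 2, which Cr2 encodes and which binds fragments of complement C3 on antigen, and it is lowered by the inhibitory lectin CD22. Follicular B cells of the spleen live on the cytokine BAFF, received through Tnfrsf13c, and enter follicles by following the chemokine CXCL13 with the receptor CXCR5. Fcer2a encodes CD23, the low-affinity receptor for IgE, Fcmr the receptor for the constant part of IgM, and Ms4a1 the membrane protein CD20. Lymphocytes are among the most radiation-sensitive cells of the body.

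Levels are log2 intensities relative to the 75th percentile of the array, so that a level of 0 is the signal at that percentile. A level belongs to its probe and cannot be set against that of another probe. Changes are log2 differences of group means ± the standard error of a linear model (limma) over all 24 arrays. A gene is said to have fallen or risen where its p, adjusted by Benjamini-Hochberg over 29532 features, was under 0.05. The share of probes read well above background was 66.95% to 76.96% an array, and that percentile was an intensity of 830.3 to 1235. All 12 probes of the 9 genes were well above background on all 24 arrays, and no spot was saturated.

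Each probe is 60 bases long, and 3 genes had more than one of them. The probes that decide how a gene is read are printed as the array files give them, with their mm9 positions. The Cr2 pair lies at chr1:196965532-196965591 and chr1:196963012-196963071, both on the minus strand, at positions 3620 and 6140 of the transcript. For Cd22, the brighter probe lies at chr7:31651249-31651308 (position 3211) and the dimmer one at chr7:31665113-31665172 (position 189 of another transcript), both on the minus strand. The Tnfrsf13c probes lie at chr15:82052203-82052262 (position 1817, brighter) and chr15:82054616-82054675 (position 91, dimmer), on the minus strand. Cd79a was read by 1 probe at chr7:25684357-25684614 on the plus strand, whose ends lie further apart than the probe is long, so that it spans an intron. Of the Cd79a probe and the dimmer Tnfrsf13c probe all 60 bases are shown, and of the other probes the first 30. Capitals mark a repeat of AACC.
Cr2, brighter probe: tggcctacagattgttcttgtgatatttca
Cr2, dimmer probe: catgacaataatggactagaactctgaact
Cd22, brighter probe: gaaaaatgaaaAACCAACCAACCAACCaaa
Cd22, dimmer probe: agggcctgctgtgttttttcatctacttta
Tnfrsf13c, brighter probe: ctatgagtaagaagcttttctttgagctgg
Tnfrsf13c, dimmer probe: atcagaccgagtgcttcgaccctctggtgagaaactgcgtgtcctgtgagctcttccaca
Cd79a probe: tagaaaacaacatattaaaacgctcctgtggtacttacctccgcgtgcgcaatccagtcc

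The AACC repeat in the brighter Cd22 probe is uncommon on this array: 7 of 55681 non-control probes (0.0126%) hold AACC 3 times in a row. The remaining genes had 1 probe each. These lie on mm9 at chr19:11325367-11325426 for Ms4a1, chr11:106172780-106172839 for Cd79b, chr8:3682343-3682402 for Fcer2a and chr9:44320071-44320130 for Cxcr5, all on the minus strand, and at chr1:132777256-132777315 on the plus strand for Fcmr. The files do not say whether a probe lies in coding or untranslated sequence.

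All 9 genes fell at 500 and at 900 cGy in B10.BR and at 400 and at 800 cGy in BALB.K, and the medians of their changes grew with dose in both strains. At 300 cGy all 9 fell in B10.BR (23.0% of all features were called lower), with a median change of -0.91. The same dose lowered 8 of 9 in BALB.K (26.0% of all features), with a median of -0.80 over the 9, and Cr2 was the exception. At 500 cGy in B10.BR the median was -1.80 and 9 of 9 fell (26.7% of all features), and at 900 cGy it was -2.58 with 9 of 9 (28.4%). In BALB.K the median was -1.45 at 400 cGy, where 9 of 9 fell (26.0%), and -2.95 at 800 cGy, again with 9 of 9 (29.1%). The median change of all features stayed between -0.12 and 0.078 in these 6 comparisons. Where one of the 9 genes fell in these 6 comparisons, its 3 irradiated arrays lay below all 3 arrays of the unirradiated group. The share of all features that lay apart in this way was not counted. With scaling on the spike-in probes, which moves the median of all features at 300 cGy in B10.BR by 0.33, 4 of the 9 passed there, all 9 at 500 and 900 cGy in B10.BR, and 6, 8 and 9 at 300, 400 and 800 cGy in BALB.K. In RNA from a whole spleen, fewer B cells and less RNA per B cell cannot be told apart.

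**Figure D1:**
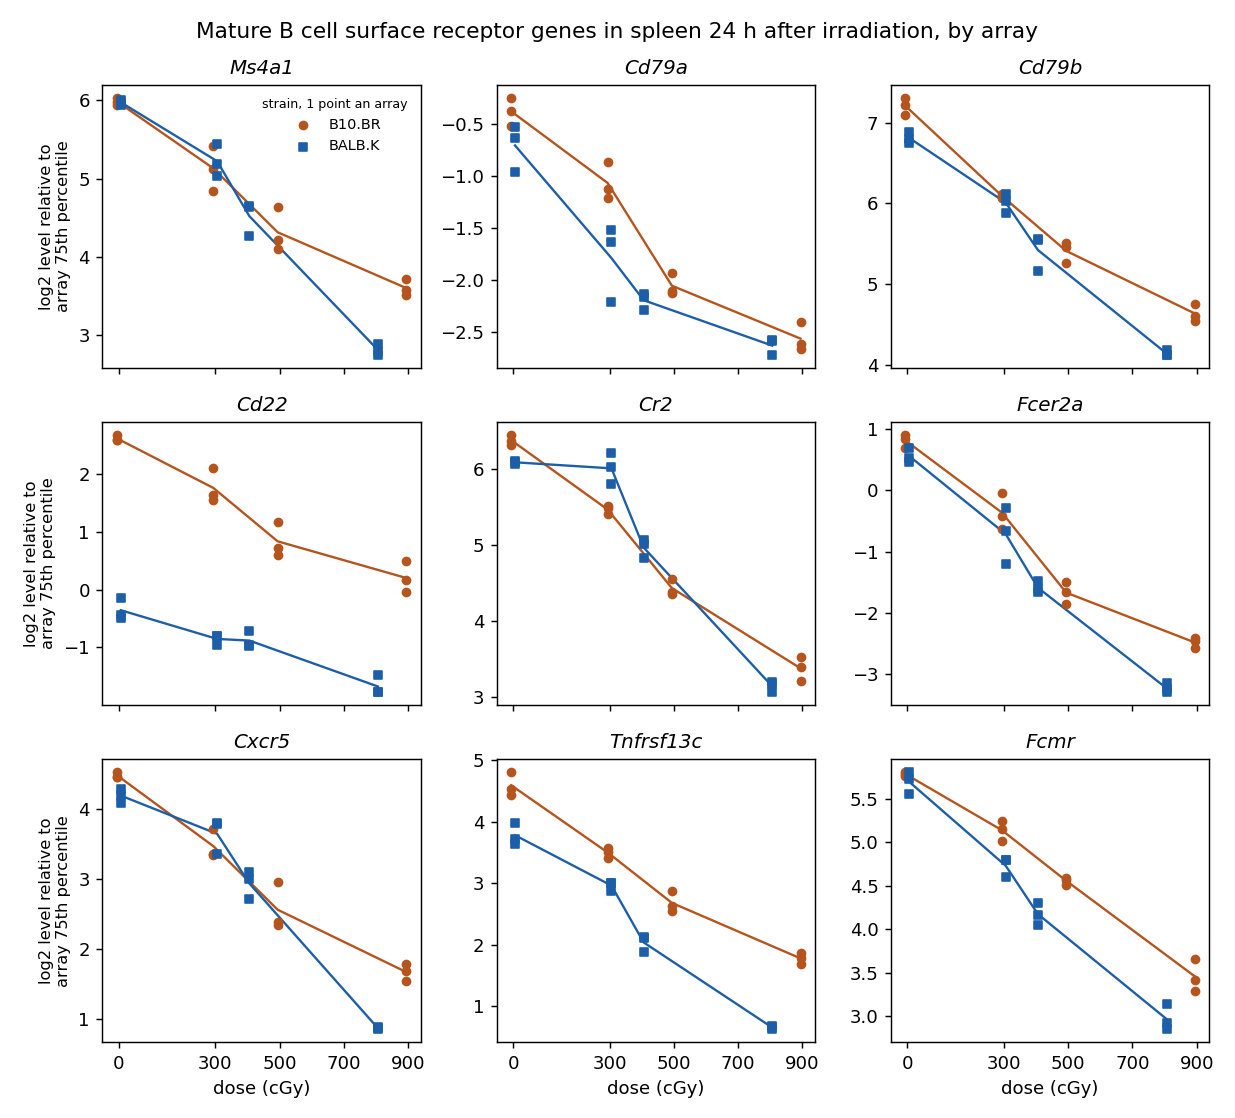
Level of each of the 9 receptor genes (log2, relative to the array's 75th percentile) against dose in cGy, with 1 point an array and lines through the group means, B10.BR in orange and BALB.K in blue. Every line falls with dose, except between 0 and 300 cGy for Cr2 in BALB.K and between 300 and 400 cGy for Cd22 in BALB.K, where it is nearly level.

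Both chains of the antigen receptor's signalling pair fell at every dose. Cd79b read 7.23, 7.09 and 7.31 at 0 cGy in B10.BR, 6.12, 6.07 and 6.09 at 300, 5.26, 5.46 and 5.51 at 500 and 4.61, 4.76 and 4.54 at 900 cGy. In BALB.K it read 6.80, 6.75 and 6.89 at 0, 5.88, 6.12 and 6.03 at 300, 5.16, 5.55 and 5.56 at 400 and 4.12, 4.18 and 4.12 at 800 cGy. No 2 doses of a strain overlapped, and the change at the highest dose was -2.58 ± 0.11 in B10.BR (adjusted p = 9.23e-13, 5.96-fold lower) and -2.67 ± 0.11 in BALB.K (adjusted p = 3.55e-13, 6.37-fold lower).

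For Cd79a, the partner chain, the last dose step in each strain did not pass the test, though the arrays of the doses compared lay apart. That step passed in 4 of 23 alternatives in B10.BR and in 6 of 22 in BALB.K. The Cd79a probe had mean intensities of 170.1 at 900 cGy in B10.BR and 185.5 at 800 cGy in BALB.K. It read -0.25, -0.37 and -0.52 at 0 cGy in B10.BR, -1.12, -1.22 and -0.87 at 300, -2.13, -2.10 and -1.94 at 500 and -2.62, -2.67 and -2.41 at 900 cGy. In BALB.K the same probe read -0.64, -0.53 and -0.96 at 0, -1.63, -2.21 and -1.52 at 300, -2.14, -2.16 and -2.29 at 400 and -2.72, -2.58 and -2.59 at 800 cGy. The change was -2.18 ± 0.15 at 900 cGy in B10.BR (adjusted p = 7.69e-10) and -1.92 ± 0.15 at 800 cGy in BALB.K (adjusted p = 3.59e-09). One BALB.K array at 300 cGy (replicate 2, at -2.21) lay among the arrays at 400 cGy, and no irradiated array of either strain reached its unirradiated ones.

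Of the 9 genes, the coreceptor gene Cr2 alone passed the test of a strain difference at 300 cGy. In B10.BR its brighter probe read 6.32, 6.38 and 6.45 at 0 cGy, 5.49, 5.51 and 5.41 at 300, 4.36, 4.56 and 4.38 at 500 and 3.40, 3.52 and 3.21 at 900 cGy. The BALB.K arrays gave 6.09, 6.11 and 6.07 at 0, 5.80, 6.21 and 6.03 at 300, 4.83, 5.06 and 5.02 at 400 and 3.20, 3.06 and 3.17 at 800 cGy. At 300 cGy the B10.BR arrays all lay below their unirradiated arrays, whereas the BALB.K arrays lay on both sides of theirs. The change at 300 cGy was -0.91 ± 0.10 in B10.BR (adjusted p = 1.03e-06) and -0.080 ± 0.10 in BALB.K (adjusted p = 0.549), and the B10.BR change minus the BALB.K change was -0.83 ± 0.14 (adjusted p = 0.00117). Of the 9 genes, 1 passed this test of the difference, a share like the 10.9% of all features that passed in either direction. Under median scaling 3 of the 9 passed, and 5207 of all features did, against 3218 without it. With scaling on the spike-in probes the difference was -0.47 (adjusted p = 0.329), and within the slides it was -0.62. The BALB.K change within a slide rests on replicate 1 at 300 cGy alone, the lowest array of its group, with the spread taken from the other groups.

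The dimmer Cr2 probe, further along the transcript, also fell at 300 cGy in B10.BR but did not pass in BALB.K. It read 3.12, 3.38 and 3.66 at 300 cGy in B10.BR, against 4.35, 4.25 and 4.44 at 0 cGy. In BALB.K it read 4.02, 4.59 and 4.45 at 300 cGy, against 4.50, 4.61 and 4.51 at 0 cGy. In a fit with every kept probe as a feature, its changes were -0.96 ± 0.15 (adjusted p = 7.22e-05) and -0.19 ± 0.15 (adjusted p = 0.356), and their difference was -0.77 ± 0.22 (adjusted p = 0.0323). On both probes BALB.K replicates 1 and 3 at 300 cGy lay below the unirradiated BALB.K arrays and replicate 2 did not, and replicate 1, the one on slide 2, lay lowest.

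From 400 cGy on, Cr2 fell steeply in BALB.K too. At 800 cGy its change was -2.95 ± 0.10 (adjusted p = 7.46e-14, 7.73-fold lower), and at 900 cGy in B10.BR it was -3.01 ± 0.10 (adjusted p = 1.03e-13, 8.03-fold lower). Follicular dendritic cells, the stromal cells that hold antigen in follicles, also carry complement receptor 2. Of 10 genes listed for these cells and their stroma, all measured, 10 rose at 900 cGy in B10.BR (25.8% of all features were called higher). At 800 cGy in BALB.K 10 rose (29.3%). At 300 cGy 9 rose in B10.BR (18.7% of all features were called higher) and 10 in BALB.K (20.7%). The list's share of the summed signal was 0.295% to 0.335% at 300 cGy in B10.BR, against 0.192% to 0.199% at 0 cGy, and 0.402% to 0.408% at 300 cGy in BALB.K, against 0.223% to 0.237% at 0 cGy. The part of these cells in the Cr2 signal was not tested.

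**Figure D2:**
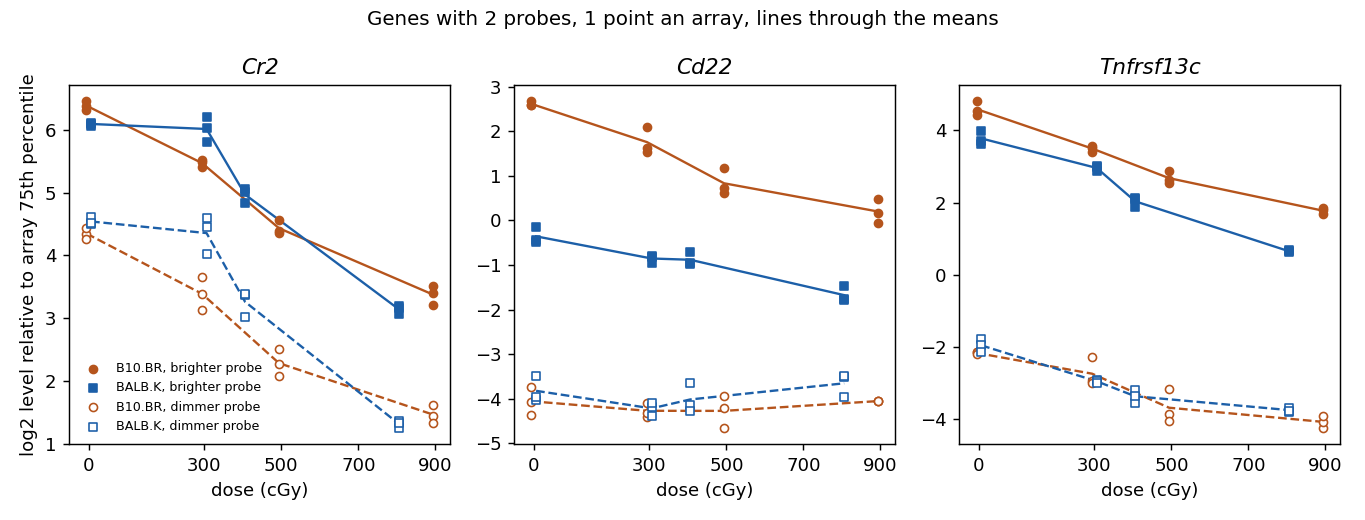
Levels of the brighter (filled) and dimmer (open) probe of Cr2, Cd22 and Tnfrsf13c (log2, relative to the array's 75th percentile) against dose in cGy, with 1 point an array and lines through the means, B10.BR in orange and BALB.K in blue. On both Cr2 probes the BALB.K points at 300 cGy lie above the B10.BR points, the dimmer Cd22 probe stayed near -4 at every dose, and at 0 cGy the B10.BR points lie above the BALB.K points on the brighter but not on the dimmer probes of Cd22 and Tnfrsf13c.

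Cd22, which encodes the inhibitory lectin, showed the largest strain difference of the 9 genes, on its brighter probe. That probe read 2.58, 2.68 and 2.59 at 0 cGy in B10.BR, 1.54, 1.64 and 2.10 at 300, 0.61, 0.72 and 1.18 at 500 and -0.048, 0.16 and 0.49 at 900 cGy. In BALB.K it read -0.14, -0.49 and -0.43 at 0, -0.80, -0.95 and -0.81 at 300, -0.97, -0.95 and -0.72 at 400 and -1.77, -1.78 and -1.48 at 800 cGy. Even the B10.BR arrays at 900 cGy lay above every BALB.K array. Without irradiation B10.BR exceeded BALB.K by 2.97 ± 0.17 (adjusted p = 1.14e-10, 7.84-fold higher).

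The dimmer Cd22 probe passed neither for the strain difference nor for any dose. It was dim, with mean intensities of 54.39 to 92.49 by group, and whether it can follow a change was not tested. It read -4.06, -4.04 and -4.05 at 900 cGy in B10.BR, against -4.07, -3.74 and -4.36 at 0 cGy. Its BALB.K arrays gave -3.52, -3.95 and -3.49 at 800 cGy, against -4.02, -3.49 and -3.96 at 0 cGy. The difference of B10.BR over BALB.K without irradiation was -0.23 ± 0.21 on this probe (adjusted p = 0.353), and in none of the 12 comparisons did it pass. On the brighter probe the change at the highest dose was -2.42 ± 0.17 in B10.BR (adjusted p = 7.2e-10) and -1.32 ± 0.17 in BALB.K (adjusted p = 1.67e-06). The repeat in the brighter probe and the differing sequences of the strains were not tested as a source of its strain difference.

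Ms4a1 differed by 0.011 ± 0.15 between the unirradiated strains (adjusted p = 0.958). Its arrays read 5.98, 5.94 and 6.03 at 0 cGy in B10.BR, 4.85, 5.13 and 5.42 at 300, 4.10, 4.22 and 4.63 at 500 and 3.51, 3.58 and 3.72 at 900 cGy. The BALB.K arrays read 5.95, 6.01 and 5.98 at 0, 5.03, 5.44 and 5.19 at 300, 4.27, 4.64 and 4.66 at 400 and 2.89, 2.81 and 2.75 at 800 cGy. The strains overlapped at 0 and at 300 cGy, where the difference between their changes was -0.10 ± 0.21 (adjusted p = 0.801). At the highest dose this CD20 gene fell 5.21-fold in B10.BR (-2.38 ± 0.15, adjusted p = 2.12e-10) and 8.94-fold in BALB.K (-3.16 ± 0.15, adjusted p = 3.83e-12).

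Fcer2a showed the largest fall of the 9 genes at each of the 6 irradiated doses. It read 0.70, 0.91 and 0.84 at 0 cGy in B10.BR, -0.64, -0.42 and -0.036 at 300, -1.86, -1.66 and -1.50 at 500 and -2.57, -2.47 and -2.42 at 900 cGy. In BALB.K this CD23 gene read 0.53, 0.69 and 0.46 at 0, -0.66, -1.21 and -0.29 at 300, -1.62, -1.49 and -1.66 at 400 and -3.16, -3.24 and -3.30 at 800 cGy. The BALB.K arrays at 300 cGy were spread over almost 1 unit but stayed below those at 0 cGy and above those at 400 cGy. Its change was -1.18 ± 0.18 at 300 cGy in B10.BR (adjusted p = 2.71e-05) and -1.28 ± 0.18 at 300 cGy in BALB.K (adjusted p = 8.48e-06). At the highest doses it was 9.86-fold lower in B10.BR (adjusted p = 2.59e-11) and 13.9-fold lower in BALB.K (adjusted p = 2.75e-12).

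Fcmr, the IgM Fc receptor gene, fell at each dose of both strains. Its arrays read 5.80, 5.76 and 5.78 at 0 cGy in B10.BR, 5.25, 5.01 and 5.15 at 300, 4.56, 4.59 and 4.51 at 500 and 3.42, 3.66 and 3.29 at 900 cGy. BALB.K arrays gave 5.72, 5.81 and 5.55 at 0, 4.79, 4.60 and 4.79 at 300, 4.05, 4.30 and 4.17 at 400 and 2.85, 3.14 and 2.92 at 800 cGy. The strains overlapped at 0 cGy, and no 2 doses of a strain overlapped. The change was -0.65 ± 0.11 at 300 cGy in B10.BR (adjusted p = 7.8e-05) and -0.96 ± 0.11 at 300 cGy in BALB.K (adjusted p = 5.99e-07), and the difference of the changes was 0.32 ± 0.15 (adjusted p = 0.189). At the highest dose Fcmr fell 5.01-fold in B10.BR (adjusted p = 3.9e-12) and 6.61-fold in BALB.K (adjusted p = 3.39e-13).

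Cxcr5, the homing receptor gene, fell at each dose of both strains, with the smallest change at 300 cGy in BALB.K (-0.55 ± 0.16, adjusted p = 0.00742). Cxcr5 read 4.46, 4.45 and 4.52 at 0 cGy in B10.BR, 3.34, 3.35 and 3.72 at 300, 2.34, 2.39 and 2.95 at 500 and 1.54, 1.69 and 1.79 at 900 cGy. In BALB.K it read 4.20, 4.28 and 4.09 at 0, 3.35, 3.80 and 3.78 at 300, 2.71, 3.00 and 3.09 at 400 and 0.89, 0.87 and 0.86 at 800 cGy. The highest dose left it 6.99-fold lower in B10.BR (-2.81 ± 0.16, adjusted p = 4.44e-11) and 9.96-fold lower in BALB.K (-3.32 ± 0.16, adjusted p = 3.25e-12). That call at 300 cGy in BALB.K was lost under median scaling (-0.37, adjusted p = 0.0806), spike-in scaling (-0.58, adjusted p = 0.137), in a fit of only the arrays compared (adjusted p = 0.0557) and without replicate 1 at 300 cGy (-0.40, adjusted p = 0.0535).
Cxcl13, the gene of the ligand, read 4.40, 4.77 and 5.11 at 900 cGy in B10.BR, against 3.67, 3.60 and 3.43 at 0 cGy, and rose by 1.20 ± 0.23 (adjusted p = 0.000203). At 800 cGy in BALB.K it read 5.18, 5.12 and 5.18, against 4.30, 4.73 and 4.54 at 0 cGy, and rose by 0.64 ± 0.23 (adjusted p = 0.0237). Neither pair of Cxcl13 groups overlapped.

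Tnfrsf13c, the BAFF receptor gene, had no overlap between neighbouring groups on its brighter probe when the 8 groups were ordered by level. On its dimmer probe 3 of 7 neighbouring pairs overlapped. The brighter probe read 4.43, 4.54 and 4.81 at 0 cGy in B10.BR, 3.41, 3.51 and 3.57 at 300, 2.54, 2.62 and 2.87 at 500 and 1.69, 1.79 and 1.86 at 900 cGy. The BALB.K values were 3.98, 3.64 and 3.72 at 0, 2.88, 3.01 and 3.00 at 300, 1.87, 2.12 and 2.11 at 400 and 0.67, 0.62 and 0.66 at 800 cGy. From high to low the order was B10.BR at 0, BALB.K at 0, B10.BR at 300, BALB.K at 300, B10.BR at 500, BALB.K at 400, B10.BR at 900 and BALB.K at 800 cGy. In the same ordering 3 of 7 neighbouring pairs overlapped for Ms4a1 and Cd79a, 2 for Cd79b, Fcer2a and Cxcr5, and 1 for Cd22, Cr2 and Fcmr. The share of all features without such overlap was not counted. On the probes that stand for the 9 genes, BALB.K at 800 cGy was the lowest group and B10.BR at 0 cGy the highest by mean, for Ms4a1 by 0.011 only. On the dimmer probes BALB.K at 0 cGy lay above B10.BR at 0 cGy in mean for Cr2, Tnfrsf13c and Cd22, with overlapping arrays for Cd22. There B10.BR at 900 cGy was the lowest group for Tnfrsf13c, and BALB.K at 800 cGy the highest for Cd22. The change at the highest dose was -2.82 ± 0.11 in B10.BR (adjusted p = 8.3e-13, 7.04-fold lower) and -3.13 ± 0.11 in BALB.K (adjusted p = 1.33e-13, 8.74-fold lower).

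On the dimmer Tnfrsf13c probe the falls were smaller but passed at all 6 irradiated doses. At 900 cGy in B10.BR this probe read -4.24, -4.07 and -3.91, against -2.14, -2.14 and -2.20 at 0 cGy (-1.91 ± 0.19, adjusted p = 1.17e-07). At 800 cGy in BALB.K it read -3.80, -3.68 and -3.76, against -1.78, -1.95 and -2.13 at 0 cGy (-1.80 ± 0.19, adjusted p = 2.28e-07). The groups did not overlap in either strain. Its mean intensity was 60.07 at 900 cGy in B10.BR and 85.64 at 800 cGy in BALB.K. The dimmer Cd22 probe, which fell at no dose, had 60.34 and 92.49 there. Whether the dimmer Tnfrsf13c probe can follow a fall at so low a signal was not tested.

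The gene of the BAFF cytokine, Tnfsf13b, rose at the doses at which Tnfrsf13c fell. It read 2.25, 2.46 and 2.59 at 900 cGy in B10.BR, against 0.36, 0.39 and 0.54 at 0 cGy (2.0 ± 0.12, adjusted p = 1.16e-10). At 800 cGy in BALB.K it read 2.19, 2.35 and 2.45, against 0.48, 0.35 and 0.27 at 0 cGy (1.96 ± 0.12, adjusted p = 1.14e-10). The other receptors of this family went opposite ways. Tnfrsf13b, which binds BAFF and APRIL, fell by 1.78 ± 0.13 at 900 cGy in B10.BR (adjusted p = 1.18e-09) and fell by 0.91 ± 0.13 at 800 cGy in BALB.K (adjusted p = 5.96e-06). Tnfrsf17, the receptor known from plasma cells, rose by 0.83 ± 0.12 (adjusted p = 7.47e-06) and 0.71 ± 0.12 (adjusted p = 3.71e-05).

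**Figure D3:**
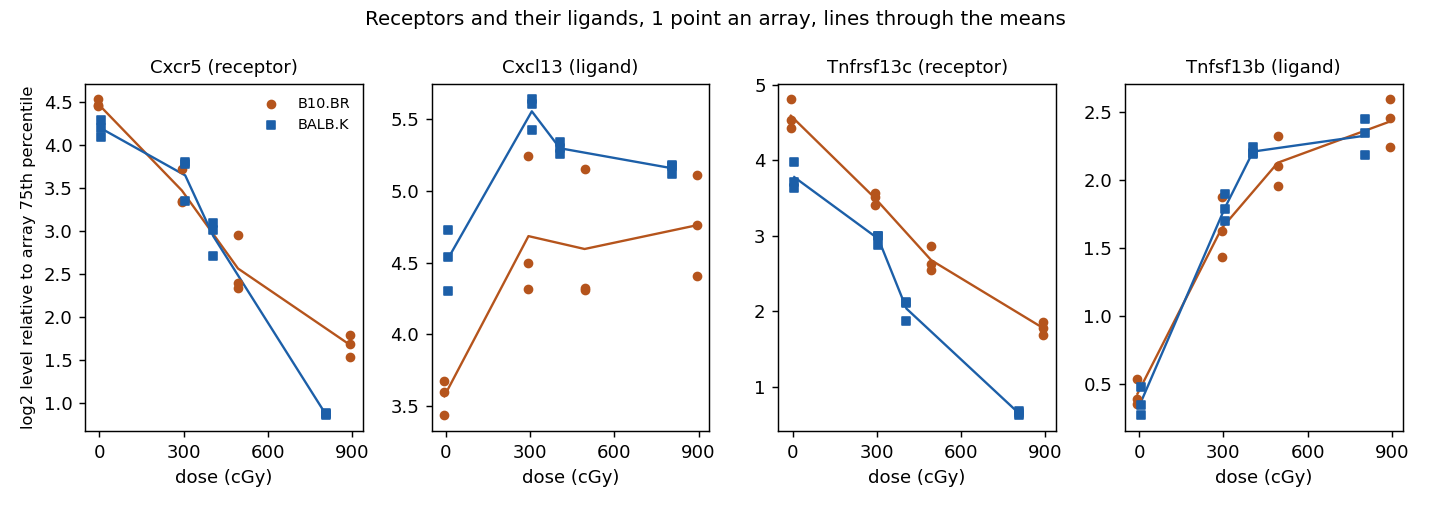
Levels of the receptor genes Cxcr5 and Tnfrsf13c beside those of their ligands' genes Cxcl13 and Tnfsf13b (log2, relative to the array's 75th percentile) against dose in cGy, with 1 point an array and lines through the means, B10.BR in orange and BALB.K in blue. The receptor genes fall with dose, and both ligand genes lie above their 0 cGy arrays at every irradiated dose.

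Ligands of Cr2 and Fcmr were read by 1 gene each. C3, the source of the complement fragments that Cr2 binds, rose by 1.13 ± 0.077 at 900 cGy in B10.BR (adjusted p = 5.69e-10) and by 0.99 ± 0.077 at 800 cGy in BALB.K (adjusted p = 2.65e-09). Ighm, for the heavy chain of IgM, did not pass at any of the 6 doses, and its probe read -4.03, -4.24 and -4.81 at 900 cGy in B10.BR, against -4.19, -5.15 and -4.83 at 0 cGy. This probe was dim, between -5.60 and -2.60 on all arrays, and whether it reads the abundant IgM transcripts was not tested.

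**Figure D4:**
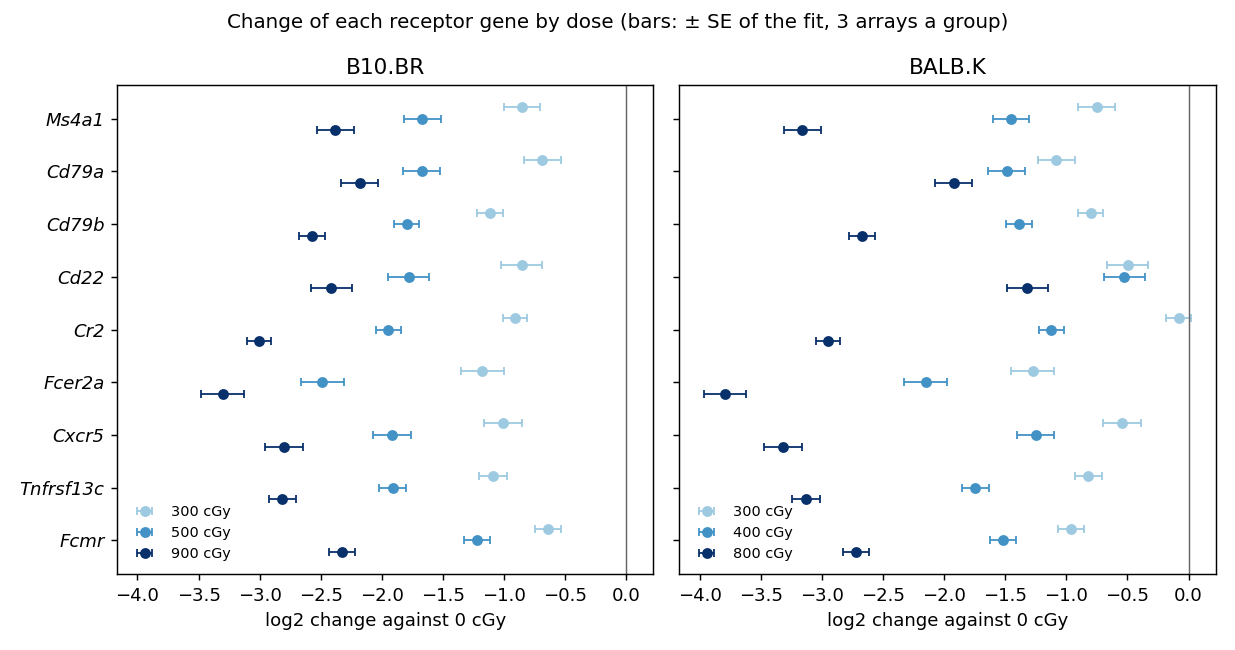
Log2 change of each receptor gene against 0 cGy with its standard error, by dose and strain, on 3 arrays a group. All points lie left of 0, with Fcer2a furthest left at each dose and Cr2 at 300 cGy in BALB.K at -0.080 ± 0.10.

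Most of the genes fell again between successive doses. At 500 against 300 cGy in B10.BR all 9 passed (0.928% of all features were called lower), with changes of -1.31 to -0.58. At 900 against 500 cGy in B10.BR 8 of 9 passed (3.25%), and Cd79a did not (-0.51 ± 0.15, adjusted p = 0.0634). At 400 against 300 cGy in BALB.K 7 of 9 passed (1.61%), while Cd79a changed by -0.41 ± 0.15 (adjusted p = 0.128) and Cd22 by -0.028 ± 0.17 (adjusted p = 0.955). At 800 against 400 cGy in BALB.K 8 of 9 passed (9.96%), with Cxcr5 at -2.06 ± 0.16 furthest down and Cd79a at -0.44 ± 0.15 (adjusted p = 0.0535). In a fit of only the arrays compared, none of the 9 passed at 500 against 300 cGy in B10.BR, where 9 had an unadjusted p under 0.05. None passed at 400 against 300 cGy in BALB.K, where 7 had one, and 3 passed at 900 against 500 cGy in B10.BR. Among all features 0, 2 and 147 passed in these fits, in that order. An unadjusted p under 0.05 was held by 3615 of all features in the fit for B10.BR at 500 against 300 cGy. For BALB.K at 400 against 300 cGy it was held by 6098. Spike-in scaling left 0, 2 and 1 calls at 500 against 300 and 900 against 500 cGy in B10.BR and 400 against 300 cGy in BALB.K. Among all features 12, 56 and 653 passed under that scaling, in that order, against 472, 1355 and 1409 without it. The pancreas level as a covariate left 5 at 900 against 500 cGy, where 497 of all features passed. Leaving out replicate 3 of BALB.K at 300 cGy left 3 of the 7 calls at 400 against 300 cGy, and leaving out replicate 3 of B10.BR at 500 cGy left 5 of the 8 calls at 900 against 500 cGy.

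Without irradiation 4 of the 9 genes were higher in B10.BR than in BALB.K, beside 22.6% of all features, and none was lower. Besides Cd22, Tnfrsf13c was higher by 0.81 ± 0.11 (adjusted p = 1.14e-05), Cd79b by 0.40 ± 0.11 (adjusted p = 0.00388) and Cr2 by 0.29 ± 0.10 (adjusted p = 0.0222). On the dimmer probes the difference was -0.21 ± 0.19 for Tnfrsf13c (adjusted p = 0.372) and -0.19 ± 0.15 for Cr2 (adjusted p = 0.306). The 5 genes that did not pass differed by 0.011 (Ms4a1) to 0.33 (Cd79a). Unirradiated B10.BR and BALB.K arrays were on different slides, so that strain was compared across slides. With slide as a block 4 genes passed, with Cxcr5 (0.88) in and Cr2 (0.22) out. With spike-in scaling, which moves the median difference of all features by -0.66, 2 of the 9 passed, Cd22 as higher and Fcmr as lower in B10.BR (-0.57, adjusted p = 0.0165). Cd79b and Cr2 were then at -0.26 and -0.37 and did not pass, and Tnfrsf13c was at 0.15 (adjusted p = 0.571). Median scaling, which moves that median by 0.31, gave 8 of 9, and quantile normalization 2. The share of all calls that were higher in B10.BR was 69.2% under median scaling and 48.7% under quantile normalization, against 42.4% otherwise.

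Of the 3 B10.BR arrays at 500 cGy, replicate 3 had the highest value for 7 of the 9 genes and replicate 1 the lowest for 8. Replicate 3 was the one array of that group on slide 2, and the others were on slide 1. Among the BALB.K arrays at 400 cGy, all on slide 3, replicate 1 had the lowest value for 7 genes. In other groups the genes were split, as for BALB.K at 800 cGy, where each of the 3 arrays was lowest for 3 genes. Genes read on the same array share its RNA, so that these counts are not independent. With slide as a block, 9 of 9 genes passed at each dose against 0 cGy in B10.BR, and 7, 8 and 9 at 300, 400 and 800 cGy in BALB.K, where Cd22 was the gene lost at 300 cGy (-0.44, adjusted p = 0.123) and at 400 cGy (-0.44, adjusted p = 0.225).

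Across the 8 group means the 36 pairs of member genes had Pearson correlations between 0.441 (Cd22 with Cr2) and 0.996 (Ms4a1 with Cxcr5), with a median of 0.956. These are descriptions over 8 points that share dose, strain and scaling. Of all other named features, Hes5 (r = 0.9974) followed the mean of the 9 standardised genes most closely, and then Btla (0.9971), Bid (0.9951), Bfsp2 (0.9948) and Ebf1 (0.9943). Fcer2a was followed most closely by Pax5 (0.9989), Cd22 by Lpar2 (0.9994), Tnfrsf13c by Cdk5r1 (0.9975), Cd79b by Kmo (0.9973), and Cr2 by Runx3 (0.9917). For Ms4a1 it was Adss (0.9956), for Cd79a Mef2c (0.9879), for Cxcr5 Gm8817 (0.9963) and for Fcmr Riok1 (0.9938).

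The lists of genes that act with these receptors or mark other spleen cells were measured on the same arrays. Of 29 genes of antigen receptor signalling, 24 fell and 2 rose at 900 cGy in B10.BR (median -1.20), and 18 fell and 3 rose at 800 cGy in BALB.K (median -0.63). Of all features, 28.4% and 29.1% were called lower in these comparisons, and 25.8% and 29.3% higher. Cd81, which many other cells also express, rose by 0.94 ± 0.099 at 900 cGy in B10.BR (adjusted p = 1.8e-07) and by 0.80 ± 0.099 at 800 cGy in BALB.K (adjusted p = 1.22e-06).
The kinase gene Btk, used by B and myeloid cells, fell by 1.25 ± 0.18 at 900 cGy in B10.BR (adjusted p = 8.95e-06), and its change at 800 cGy in BALB.K was 0.019 ± 0.18 (adjusted p = 0.937). Lyn, for a kinase of both lineages as well, was at 0.15 ± 0.11 (adjusted p = 0.301) and 0.026 ± 0.11 (adjusted p = 0.858). The adaptor gene Blnk fell by 1.36 ± 0.092 (adjusted p = 5.69e-10) and fell by 1.09 ± 0.092 (adjusted p = 9.19e-09), and the inhibitory receptor gene Fcgr2b fell by 0.76 ± 0.12 (adjusted p = 2.97e-05) and fell by 0.30 ± 0.12 (adjusted p = 0.0407). The median over the 9 receptor genes was -2.58 in B10.BR and -2.95 in BALB.K in these comparisons, and the difference between the lists was not tested.

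Of 8 B cell transcription factors, 8 fell at 900 cGy in B10.BR (median -1.66, beside 28.4% of all features). At 800 cGy in BALB.K 7 fell (median -1.67, beside 29.1%). Pax5, which keeps B cells committed to their lineage, fell by 3.02 ± 0.17 (adjusted p = 5.51e-11) and fell by 3.73 ± 0.17 (adjusted p = 2.33e-12), and Ebf1 fell by 3.38 ± 0.10 (adjusted p = 2.11e-14) and fell by 3.76 ± 0.10 (adjusted p = 7.01e-15).
The lists of other spleen cells went both ways. Beside them, 25.8% of all features were called higher at 900 cGy in B10.BR and 29.3% at 800 cGy in BALB.K. Called lower were 28.4% and 29.1%. Of 14 T cell genes, 13 fell at 900 cGy in B10.BR (median -2.22) and 13 at 800 cGy in BALB.K (median -1.54). The list of follicular dendritic cells and stroma is given with Cr2 above, and it shares Cxcl13 with the ligands. All 12 macrophage genes rose in both (medians 2.04 and 2.25). Of 10 plasma cell genes, 7 rose and 1 fell at 900 cGy in B10.BR (median 0.57), and 9 rose and none fell at 800 cGy in BALB.K (median 0.88).

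**Figure D5:**
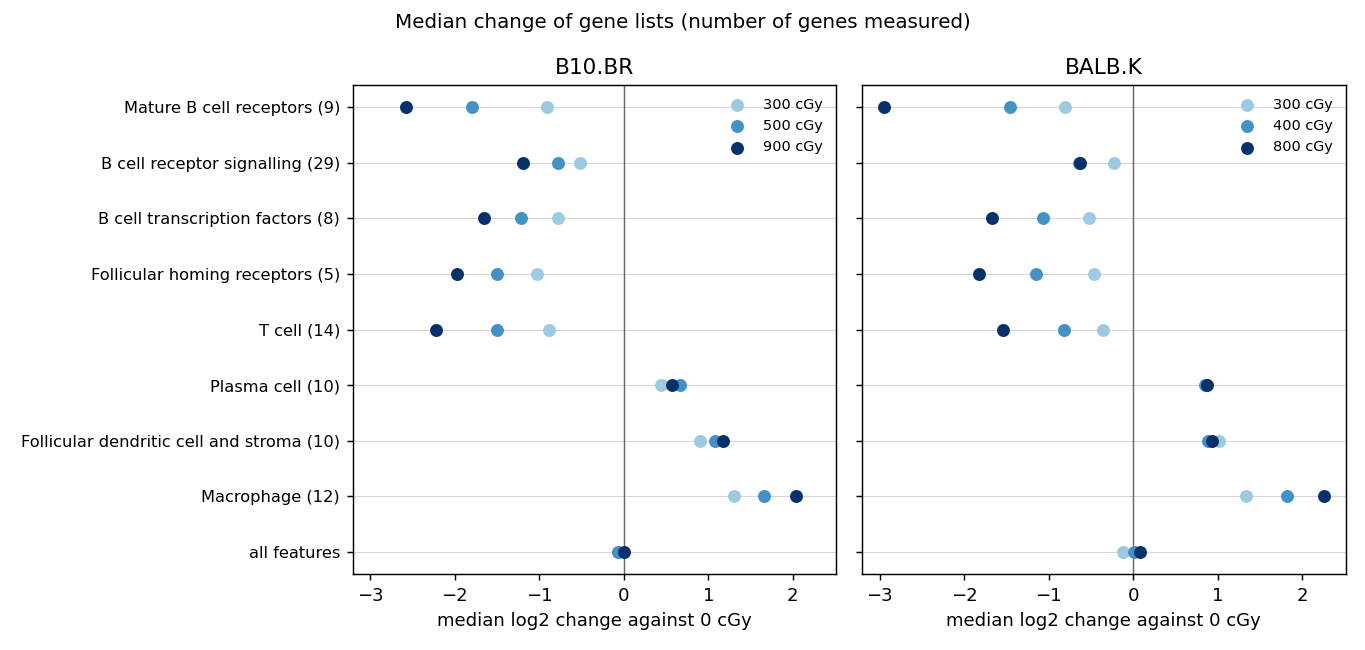
Median log2 change against 0 cGy of the 9 receptor genes, of 7 gene lists with the number of genes measured, and of all features, by dose and strain. Of the lists drawn, the receptor genes have the lowest median at the highest dose in both strains (-2.58 in B10.BR and -2.95 in BALB.K), and macrophage, stromal and plasma cell lists lie right of 0. The list of red cell precursors, whose medians were lower than those of the receptor genes at these doses, is not drawn.

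Genes of exocrine pancreas, a tissue beside the spleen, varied between arrays. Their 18 measured genes made up 0.465% to 0.728% of the summed signal at 900 cGy in B10.BR and 0.0282% to 0.635% at 300 cGy, against 0.000808% to 0.00193% at 0 cGy, and all 18 rose in both comparisons. In BALB.K the share was 0.135% to 0.731% at 800 cGy and 0.018% to 0.959% at 300 cGy, against 0.00343% to 0.0844% at 0 cGy, and 1 and 0 of 18 passed. With the level of these genes as a covariate, as many of the 9 receptor genes passed at each dose against 0 cGy as without it. Y-linked genes were high on all B10.BR arrays and on all 3 BALB.K arrays at 800 cGy, but on 1 of 3 BALB.K arrays at each of 0, 300 and 400 cGy. With their level as a covariate the counts of receptor genes passing at each dose against 0 cGy were again the same. The part of pancreas RNA and of the mice's sex in these values was not tested further.

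The promoters of 6 of the 9 genes were matched by symbol in RefSeq windows on GRCm38.p6 of 300 bases around a start site (8 windows, 3 of them of Fcer2a). They were searched on both strands for 4 motifs. The octamer ATTTGCAT, bound by Oct factors, was in 0 of the 8 windows and in 1.74% of 32851 windows of all genes. The ETS motif GGAAGT was in 3 (Cd79a, Cr2 and the first Fcer2a window) and in 23.8% of all. CCCNNGGG, the core bound by EBF, was in 1 (Cd22) and in 13.7%, and TATAAA was in 1 (Fcer2a) and in 13.6%. Below are the windows of the 2 coreceptor genes that act in opposite directions and of Cd79a, the motif in capitals: chr7:24897247-24897546 on the plus strand for Cd79a, chr1:195176670-195176969 on the minus strand for Cr2, where the motif is on the other strand, and chr7:30878979-30879278 on the minus strand for Cd22.
Cd79a promoter: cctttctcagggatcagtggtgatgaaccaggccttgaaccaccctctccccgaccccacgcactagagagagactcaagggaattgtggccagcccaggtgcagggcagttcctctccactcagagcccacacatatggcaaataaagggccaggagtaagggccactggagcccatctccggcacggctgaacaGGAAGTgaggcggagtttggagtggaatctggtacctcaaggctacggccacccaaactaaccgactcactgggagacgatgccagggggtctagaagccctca
Cr2 promoter: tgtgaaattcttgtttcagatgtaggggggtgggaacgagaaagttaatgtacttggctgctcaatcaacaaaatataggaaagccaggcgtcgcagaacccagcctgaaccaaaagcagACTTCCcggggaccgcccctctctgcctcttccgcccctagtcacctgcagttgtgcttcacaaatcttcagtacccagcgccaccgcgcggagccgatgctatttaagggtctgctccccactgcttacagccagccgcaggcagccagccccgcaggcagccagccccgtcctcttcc
Cd22 promoter: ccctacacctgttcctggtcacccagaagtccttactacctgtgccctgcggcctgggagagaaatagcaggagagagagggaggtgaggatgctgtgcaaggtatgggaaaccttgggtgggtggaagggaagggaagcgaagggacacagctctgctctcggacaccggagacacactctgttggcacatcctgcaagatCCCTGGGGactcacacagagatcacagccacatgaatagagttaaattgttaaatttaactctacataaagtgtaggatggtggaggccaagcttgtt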

How the data were processed

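Spleen RNA labelled with Cy3 was hybridised to 24 one-colour arrays, 3 for each of 8 groups, per the labels. The authors deposited scanner files whose processed signals are background-subtracted intensity values, made with Agilent Feature Extraction 10.5.1.1 per the file headers and the submitters' processing notes. They also deposited a matrix of log2 values, which tracked the differences between arrays within a strain with a slope of 1. Column medians of that matrix ran between -0.118 and 0.176, its centring is not stated, and it was used as an alternative only. In its values 100% of probes had a median of 0 over the BALB.K arrays, and 0.496% over the B10.BR arrays.

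Spots marked as outliers (72 to 218 an array) were left out, the log2 intensity was taken relative to the array's 75th percentile, and probes were kept where all 3 arrays of a group were well above background (42319 of 55681). One probe stood for a gene, that with the highest mean, which left 29532 features. Of the 55681 probes, 26413 were named by accession, 3859 by symbol and 735 by synonym through RefSeq, and 24674 kept the file's name or accession. Group means were fitted with limma 3.58.1 in R 4.3.3, with files read by the data.table package (version 1.17.8) and samples grouped by the strain and dose in the labels, with 2-sided p-values adjusted by Benjamini-Hochberg over all features in each of 12 comparisons. Arrays were independent files, with no identical pair and a highest correlation of 0.9958. The number of arrays limits the precision.

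The 9 genes, the gene lists and the tests were chosen with earlier results of these data known. The text names all 9 genes with every probe, list genes chosen for their roles, and the features closest to the 9 by correlation. Of the listed genes Ighd, Tnfsf13, Myof, Ly6g, Hbb-b1 and Amy2b were not analysed here, and 1 listed gene is not reported here. On simulated data for BALB.K at 300 against 0 cGy, the test called 74 of 100 features lowered by a log2 of -1 and 90 of 100 lowered by a log2 of -2, plus 10 false ones, among 29532. The simulation changed only these features, with independent noise and no slides. In the data 13819 features passed in that comparison, so that the simulated shares need not hold there. The labels number the replicates but name no pairing. Deviations from the group means of same-numbered arrays correlated over 0.1 in every pair (0.121 to 0.239) for B10.BR at 900 against 500 cGy. In no other comparison did every pair do so, though 1 pair reached 0.272 for BALB.K at 400 against 0 cGy. These correlations do not show that the arrays were paired. Alternatives were quantile, median and spike-in scaling (10 spike-in probes), normexp background correction (offset 50), other probe filters, use of the marked spots, averaging over a gene's probes, slide or replicate number as a block, only the arrays compared, trend and robust moderation, Y-linked and pancreas levels as covariates, leaving out each array, and, chosen after seeing the data, arrays within a slide and every probe on its own.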

Additional observations from a re-analysis of the deposited data

Results flagged for a closer look

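Cr2 alone of the receptor genes passed the test of a strain difference in the effect of 300 cGy. This share of the genes was like the 10.9% of all features that passed in either direction. The B10.BR change minus the BALB.K change was -0.83 ± 0.14 on the log2 scale (adjusted p = 0.00117 by limma), with all 3 B10.BR arrays at 300 cGy below their unirradiated arrays and 2 of 3 BALB.K arrays below theirs. Over 28 alternatives the difference ran between -1.06 and -0.47, with adjusted p between 0.000291 and 0.329. The value under spike-in scaling (-0.47, adjusted p = 0.329) was the one that did not pass. The B10.BR arrays compared were all on slide 1. The unirradiated BALB.K arrays were on slide 2, and 2 of 3 BALB.K arrays at 300 cGy were on slide 3. The BALB.K change was thus largely taken across slides, and the part of the slides in the difference was not tested further.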

How the results depend on the processing

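Counts below are of the 9 genes passing. At 500 and 900 cGy in B10.BR and at 400 and 800 cGy in BALB.K against 0 cGy, no alternative moved the count by more than 1 gene. At 300 against 0 cGy in BALB.K, 8 passed and 6 to 8 under the alternatives, with Cd22 and Cxcr5 the genes lost. With spike-in scaling the count was 4 at 300 against 0 cGy in B10.BR, 0 at 500 against 300 cGy (9 of 9 at an unadjusted p under 0.05 by limma), 2 at 900 against 500 cGy, 1 at 400 against 300 cGy in BALB.K, 2 between the unirradiated strains and 0 for the difference at 300 cGy (1 at an unadjusted p under 0.05). Under spike-in scaling 12 of all features passed at 500 against 300 cGy, 56 at 900 against 500 cGy and 653 at 400 against 300 cGy in BALB.K. Median scaling gave 8 between the unirradiated strains and 3 for the difference at 300 cGy, where 5207 of all features passed. Quantile normalization and the mean of a gene's probes gave 2 and 2 between the unirradiated strains. In fits of only the arrays compared, limma's counts were 0 at 400 against 300 cGy in BALB.K (7 at an unadjusted p under 0.05), 0 at 500 against 300 cGy in B10.BR (9 at an unadjusted p under 0.05, and 3615 of all features, of which 0 passed) and 3 at 900 against 500 cGy. In the first of these fits 2 of all features passed, and in the last 147. The pancreas covariate gave 5 at 900 against 500 cGy. Leaving out 1 array gave 3 to 7 at 400 against 300 cGy in BALB.K and 5 to 8 at 900 against 500 cGy in B10.BR. With the replicate block every count was as without it (8 of 9 at 900 against 500 cGy in B10.BR), and among all features 892 passed at 500 against 300 cGy, against 472 without it.

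Signs turned only where noted here, and of these values Cd79b and Cr2 between the unirradiated strains had passed. Between the unirradiated strains Ms4a1 was at -0.15 (quantile), -0.65 (spike-in), -0.039 (replicate block), -0.044 (pancreas covariate), -0.012 (without B10.BR 0 cGy replicate 3) and -0.0040 (without BALB.K 0 cGy replicate 1), and over all arrays left out in turn between -0.012 and 0.032. Fcmr was at -0.084 (quantile) and -0.57 (spike-in, passing as lower in B10.BR with adjusted p = 0.0165), and spike-in scaling put Cd79a at -0.33, Cd79b at -0.26, Cr2 at -0.37, Cxcr5 at -0.37 and Fcer2a at -0.40. For the difference at 300 cGy, Ms4a1 was at 0.087 (slide as a block, and within a slide), 0.27 (spike-in), 0.039 (without B10.BR 300 cGy replicate 1) and 0.0090 (without BALB.K 300 cGy replicate 2), with a range of -0.25 to 0.039 over arrays left out. Fcer2a was at -0.13 (median), -0.066 (without B10.BR 300 cGy replicate 3) and -0.15 (without BALB.K 300 cGy replicate 2), up to 0.31 (without BALB.K 300 cGy replicate 3), Tnfrsf13c at 0.074 (mean of probes) and 0.093 (spike-in), and spike-in scaling put Cd22 at 0.0070 and Cd79b at 0.053. Cr2 at 300 against 0 cGy in BALB.K was at 0.097 (median), 0.099 (quantile) and 0.026 (without BALB.K 300 cGy replicate 1), down to -0.18 (without replicate 2). Cd22 at 400 against 300 cGy in BALB.K was at 0.0030 (pancreas covariate), 0.086 (mean of probes), 0.11 (spike-in), 0.018 and 0.0080 (without BALB.K 400 cGy replicates 1 and 2), down to -0.11 (without replicate 3). The causes were not tested.

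Scaling also moved all features. Spike-in scaling shifted the median of all features by 0.33, 0.32 and 0.39 at 300, 500 and 900 cGy in B10.BR, by 0.10 and 0.39 at 400 and 800 cGy in BALB.K, and by -0.66 between the unirradiated strains, and the share of calls that were higher at 900 cGy in B10.BR was 78.7% under it, against 47.7% otherwise. At 300 cGy in BALB.K median scaling shifted the median by 0.18. Of all features, 1409 passed at 400 against 300 cGy in BALB.K (2 to 5164 under the alternatives that kept every array), 472 at 500 against 300 cGy in B10.BR (0 to 952) and 3218 for the difference at 300 cGy (871 to 5207). At 900 against 500 cGy 1355 passed and 56 with spike-in scaling, and between the unirradiated strains 15766 passed and 5746 with slide as a block. Spike-in scaling also gave 8603 in place of 13819 at 300 cGy in BALB.K, 7644 in place of 12330 at 300 cGy and 9489 in place of 14415 at 500 cGy in B10.BR, and 3380 in place of 5498 at 800 against 400 cGy.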

Other observations

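Of 5 genes of follicular homing receptors, 5 fell at 900 cGy in B10.BR (median -1.97) and 5 at 800 cGy in BALB.K (median -1.83), among them Ccr7, the receptor that draws lymphocytes to the T cell zone (-1.27 ± 0.099, adjusted p = 3.52e-09, and -1.02 ± 0.099, adjusted p = 5.57e-08 by limma). Ccr7 did not pass at 300 cGy in either strain (-0.18 ± 0.099, adjusted p = 0.17, in B10.BR and -0.22 ± 0.099, adjusted p = 0.0829, in BALB.K) nor at 500 cGy in B10.BR (-0.24 ± 0.099, adjusted p = 0.0525). The 7 measured genes of marginal zone and transitional B cells were split, with 3 higher and 3 lower at 900 cGy in B10.BR, and 3 higher and 3 lower at 800 cGy in BALB.K. Of 6 genes of follicular helper T cells, 3 fell at 900 cGy in B10.BR and 3 at 800 cGy in BALB.K, while at 300 and at 400 cGy in BALB.K 2 rose and 2 fell. Of all features, 25.8% were called higher and 28.4% lower at 900 cGy in B10.BR, and 29.3% higher and 29.1% lower at 800 cGy in BALB.K.

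Genes of red cell precursors had lower medians than the receptor genes, a difference that was not tested. Of 11 measured erythroid genes, 10 fell at 900 cGy in B10.BR (median -6.14) and 10 at 800 cGy in BALB.K (median -5.17), with none higher. Of 9 neutrophil genes, 2 rose and 2 fell at 900 cGy in B10.BR, and 2 rose and 0 fell at 800 cGy in BALB.K. Beside these counts, 25.8% of all features were called higher and 28.4% lower at 900 cGy in B10.BR. At 800 cGy in BALB.K the shares were 29.3% and 29.1%.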
